A study of Mus musculus with 16 samples.

Results

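Spinal cord lacking both Nova1 and Nova2 was compared with brain lacking both genes. Double knockout spinal cord and double knockout brain are represented by 4 exon arrays each, 8 of the 16 arrays of the series, chosen by their sample titles. Total RNA came from CD1 mice, an outbred stock, at embryonic stage E18.5, with 1 array for each biological replicate. The tissue was whole brain or spinal cord, and the remaining 8 arrays are the same tissues from wild type mice (4 brain, 4 cord). No treatment, Cre driver or allele name is given in the labels, and the same genotype label is on all 8 double knockout samples.

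Nova1 and Nova2 are RNA-binding proteins of neurons that bind YCAY motifs in pre-mRNA and steer alternative splicing of many synaptic and cytoskeletal transcripts. Brain and spinal cord arise from the same neural tube, and their identities are laid down early by homeodomain factors. Otx2, Emx, Dlx and Tbr1 genes mark the front of the tube, and the Hox clusters mark hindbrain and cord in the order of their position on the chromosome. The comparison asks which regional and exon differences are present when both Nova proteins are absent, with the wild type tissues as the measure of what the same difference is in their presence.

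Levels of a gene are the median of log2(intensity + 16) over its probe sets, centred on each array, and the floor of 6.73 is the median of all probe sets. A gene is called higher or lower at an adjusted p under 0.05 (limma, Benjamini-Hochberg over all 14570 genes tested). Nova1 read 4.51, 5.35, 5.20 and 5.46 on the 4 double knockout brain arrays and 6.47, 6.41, 6.69 and 6.44 on the 4 double knockout cord arrays. All 8 values lie below the floor, against means of 10.19 in wild type brain and 11.76 in wild type cord. Nova2 read 7.89, 7.70, 7.69 and 7.95 in brain and 7.48, 7.29, 7.56 and 7.42 in cord. The Nova2 means in wild type were 8.58 in brain and 8.54 in cord. Its probe sets differed among themselves: probe set 4551019 had a mean signal of 11.81 in brain of either genotype, while probe set 5294108 had 9.05 in wild type brain and 6.72 without Nova. In cord, probe set 5294108 had 8.39 in wild type and 7.29 in the double knockout.

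The cord arrays had a higher median intensity than the brain arrays (107.7 to 111.8 against 76.5 to 78.8) and a lower 95th percentile (1177 to 1193 against 1423 to 1462). The difference between tissues also moved with the level of a gene, and the cause of this was not tested. Over the 2914 dimmest genes the median difference, cord minus brain, was 0.47, and over the 2914 brightest it was -0.27 (0.42 and -0.27 in wild type). After quantile normalization these medians were 0.18 and 0.01. Where quantile normalization ended the call of a gene named here, its value is given beside it. Levels of Xist and the Y-linked gene Eif2s3y read 4 female double knockout brains, and 3 female and 1 male double knockout cords (cord array 4). In bulk tissue, fewer cells of a type and less RNA per cell cannot be told apart.

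Across all genes, 8870 of 14570 (60.9%) were called between double knockout cord and brain, 4394 higher in cord (30.2%) and 4476 lower (30.7%). At a difference of at least 1 on the log2 scale, 556 genes were higher in cord (3.82%) and 113 were lower (0.776%), 669 in all (4.59%). Of the 556 higher genes, 264 were among the 2914 dimmest and 20 among the 2914 brightest. After quantile normalization, 26.7% of genes were higher and 22.4% lower, by at least 1 in 317 (2.18%) and 138 (0.948%). With no centring the counts by at least 1 turned round to 221 higher and 350 lower, and with no floor they were 336 and 242. The largest difference upward belonged to the clone gene 1700109F18Rik (5.24, SE 0.241, n = 4 per group), outside the rule for named genes and picked after its value was seen.

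The Hox genes, transcription factors that give positional identity along the neck, trunk and tail, made up 8 of the 12 largest named differences toward cord. Though Hoxc8 and Ttr differed more, Hoxd10, Hoxa9 and Otx2 are among the 12 largest named differences each way. Otx2 is a forebrain and midbrain factor at the other end of the difference. The promoters of Hoxd10, Hoxa9 and Otx2 are shown. They are the 150 bases before the start of each gene, read 5′ to 3′ on the gene's strand (RefSeq, GRCm38.p6), with TAATTA, the core of homeodomain binding sites, in capitals.
Hoxd10, chr2:74691741-74691890, plus strand: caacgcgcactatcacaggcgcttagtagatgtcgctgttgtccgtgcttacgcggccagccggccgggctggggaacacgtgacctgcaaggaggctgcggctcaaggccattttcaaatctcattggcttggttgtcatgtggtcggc
Hoxa9, chr6:52227371-52227520, minus strand: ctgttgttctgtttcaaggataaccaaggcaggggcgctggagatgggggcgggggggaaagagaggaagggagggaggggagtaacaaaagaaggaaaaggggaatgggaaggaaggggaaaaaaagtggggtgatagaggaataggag
Otx2 (the first of 4 starts in the table), chr14:48667645-48667794, minus strand: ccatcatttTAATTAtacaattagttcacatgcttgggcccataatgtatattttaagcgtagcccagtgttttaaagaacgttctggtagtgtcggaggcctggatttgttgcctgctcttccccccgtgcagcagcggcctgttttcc
TAATTA was found once in the Otx2 window and in neither Hox window. On both strands it occurs in 2.8% of 27025 promoter windows of this length and in 1 of the 15 tested Hox genes with an entry (6.67%). TTTATNG, a core that posterior Hox proteins bind, was found in 6.04% of all windows and 6.67% of the Hox windows. Both motif counts rest on 1 Hox gene, so the Hox windows stood near the rest.

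Of 39 Hox genes listed, 28 were tested, and 26 of these were higher in double knockout cord and none lower, where 30.2% of all genes were higher. By at least 1 there were 24, against 3.82% of all genes. For 11 of the 28 the brain mean was below the floor. The filter took the mean over all arrays, so the direction of these 11 is not independent of it. The median difference was 2.02, against -0.02 over all genes tested. Hoxc8, of the lower cervical to thoracic region, read 6.56, 6.18, 5.48 and 6.06 in double knockout brain and 10.77, 10.84, 11.03 and 10.79 in cord. Every brain array lay below the floor, and every cord array lay far above every brain array. The difference was 4.79 (SE 0.205, adjusted p = 2.58e-11, n = 4 per group), at least 20.4-fold against the floor.

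Hoxd10, of the lumbar region, read 6.19, 6.18, 6.57 and 6.53 in brain and 10.69, 10.72, 10.73 and 10.78 in cord. Here too all brain arrays were below the floor, and the cord arrays lay close together. Its difference was 4.36 (SE 0.138, adjusted p = 6.28e-13), at least 18.7-fold against the floor. Hoxa9, which acts at thoracic and lumbar levels, read 6.25, 5.70, 5.55 and 6.07 in brain and 10.10, 9.89, 9.83 and 9.83 in cord, with brain below the floor and cord at least 10.5-fold above it (difference 4.02, SE 0.13). Hoxb9 read 7.73, 7.39, 5.83 and 6.71 in brain and 11.24, 11.08, 11.24 and 11.12 in cord. Hoxb9 was above the floor in brain on average, and 21.8-fold higher in cord (difference 4.25).

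The median difference was larger in each later group of paralogues up to number 10. The 5 tested genes of paralogues 2 and 3, expressed from the hindbrain downward, had a median of 1.25 and a range from 0.91 to 1.75. Paralogues 4 to 8 (14 genes, 12 higher) had a median of 2.02, and paralogues 9 and 10 (7 genes, all higher) a median of 3.92. The 2 genes of paralogues 11 to 13, Hoxd11 (2.14) and Hoxc13 (1.13), had smaller differences. Hoxa4 (0.32, adjusted p = 0.346) and Hoxa5 (0.19, adjusted p = 0.816) were the 2 that did not pass limma's test. Brain was below the floor for 4 of the 14 genes of paralogues 4 to 8 and 6 of the 7 of paralogues 9 and 10, so their differences are not exact. With levels below the floor set to the floor, the medians were 1.25, 1.97 and 3.12, and 1.90 over all 28. These groups of paralogues are described and were not tested against each other. The plot of Hox genes by paralogue shows the same order.

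**Figure D1:**
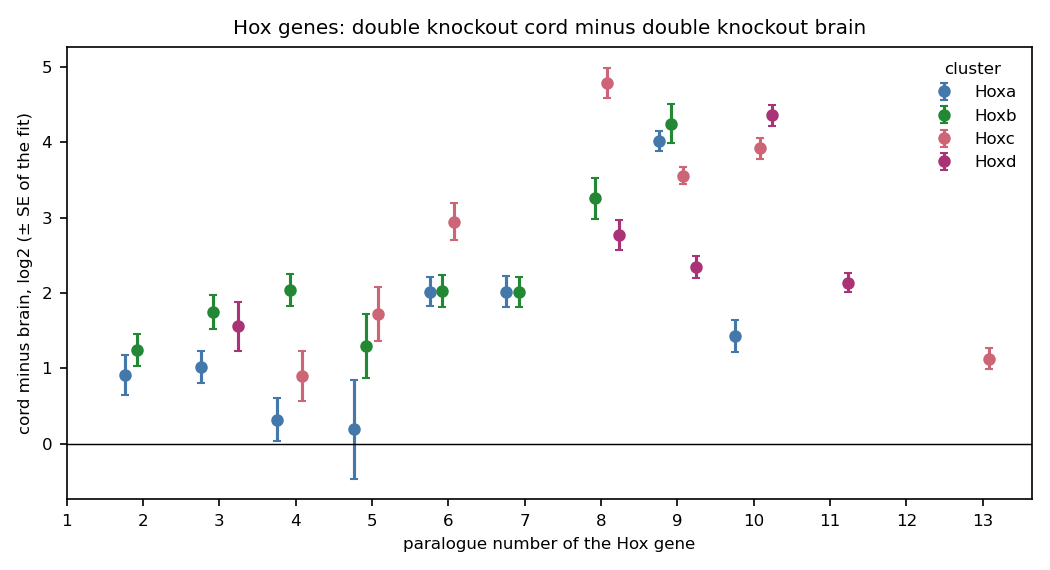
Difference of the gene level between double knockout spinal cord and brain (y axis, log2, with the standard error of the limma fit, n = 4 per group) for 28 Hox genes by paralogue number (x axis), coloured by cluster. Points rise from a median of 1.25 at paralogues 2 and 3 to 3.92 at paralogues 9 and 10, and Hoxa4 and Hoxa5 lie nearest to 0.

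At the other end, genes of the forebrain, the midbrain and the choroid plexus were lower in double knockout cord. Ttr encodes transthyretin, the carrier of thyroid hormone made by the choroid plexus. It read 12.89, 12.78, 12.77 and 12.85 in brain and 6.85, 6.34, 6.69 and 6.96 in cord. Its mean in cord, 6.71, was just under the floor, and its difference of -6.11 (SE 0.257, adjusted p = 2.01e-11) means that brain was at least 80.0-fold brighter than the floor.

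Otx2, which specifies forebrain and midbrain and is also kept on in choroid plexus, read 8.86, 8.97, 9.27 and 9.03 in brain and 5.63, 5.73, 5.58 and 6.11 in cord. No array of the 2 tissues overlapped, and all cord values were below the floor (difference -3.27, SE 0.169, adjusted p = 4.56e-10). Tcf7l2, a Wnt effector that marks the thalamus, read 10.31, 10.44, 10.82 and 10.43 in brain and 7.44, 7.53, 7.59 and 7.44 in cord, with brain 8.71-fold brighter. Lhx9, of the thalamus and tectum, was lower by a difference of -2.36 (SE 0.121).

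The homeobox gene Dlx1 and the long noncoding RNA Dlx6os1 mark GABA neurons of the ventral forebrain, and both were lower. Dlx1 had a difference of -2.50. Dlx6os1 was below the floor in cord, and brain was at least 7.24-fold above the floor (difference -3.13). Ptgds, the prostaglandin D synthase of meninges and oligodendrocytes, read 11.17, 11.20, 11.60 and 11.41 in brain and 7.87, 8.14, 8.23 and 9.46 in cord. Cord array 4 was the highest of the cords, and no cord reached a brain value. Here the difference was -2.92 (SE 0.258).

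**Figure D2:**
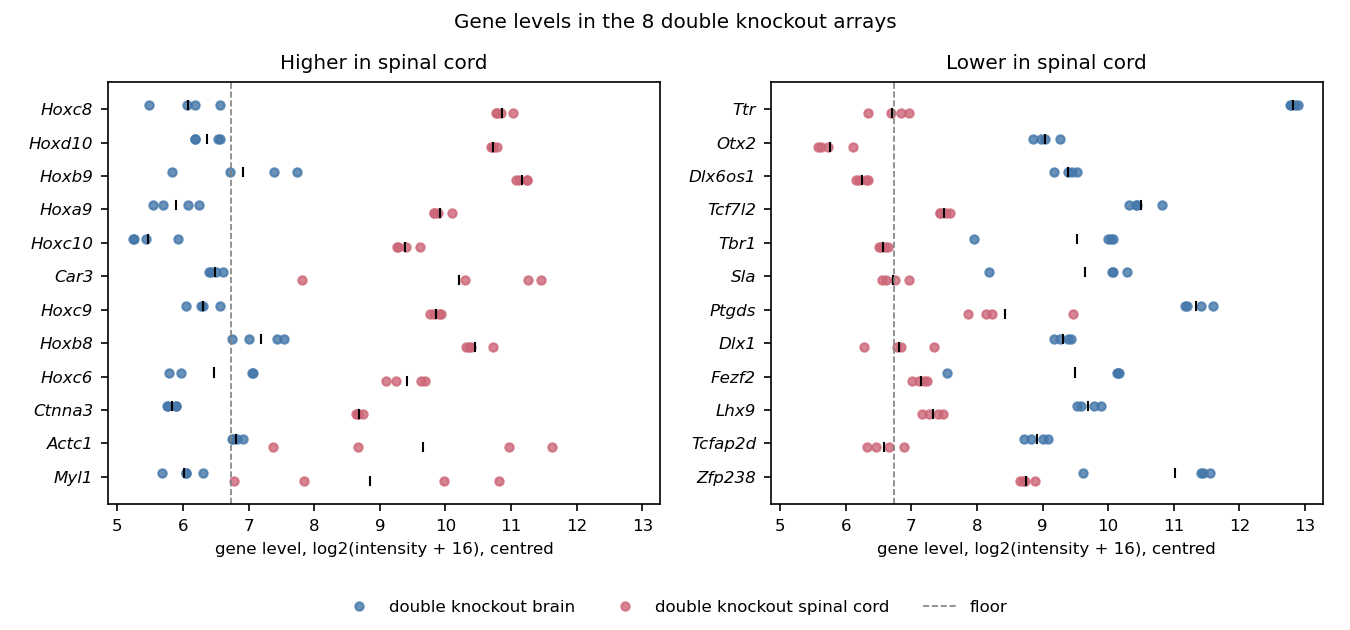
Gene levels (x axis, log2(intensity + 16), centred) of the 12 genes with the largest differences in each direction, clone genes skipped, on each of the 8 double knockout arrays, with the mean as a black tick and the floor of 6.73 as a dashed line. Brain and cord arrays do not overlap for any of the 24 genes, as the rule for naming them asks (57.1% of all genes do not overlap), while brain array 3 is apart from the other brains for Tbr1, Sla, Fezf2 and Zfp238, and the 4 cord arrays spread widely for Car3, Actc1 and Myl1.

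The telencephalon and cortex list held 20 tested genes, of which 12 were lower in double knockout cord and 1 was higher, where 30.7% of all genes were lower. The median was -1.10. By at least 1, 11 were lower, against 0.776% of all genes. For 2 of the 20 the cord mean was below the floor, so their direction is not independent of the filter. Tbr1, a factor of deep-layer glutamatergic cortical neurons, read 9.99, 10.04, 7.96 and 10.08 in brain and 6.51, 6.65, 6.54 and 6.60 in cord. Brain array 3 was far below the other brains and still above every cord. The difference was -2.94 (SE 0.638, adjusted p = 0.000899), and it was -0.57 and not called (adjusted p = 0.128) where a probe set had to be above the floor in each double knockout tissue.

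Fezf2, which specifies corticospinal neurons, had the same pattern: 10.17, 10.15, 7.54 and 10.14 in brain, and 7.12, 7.19, 7.24 and 7.01 in cord. Neurod2 (-1.69), Mef2c (-1.85), Lhx2 (-1.93) and Bcl11b (-1.13), all factors of cortical neurons or their progenitors, were also lower. Gsx2, of the ganglionic eminence, went the other way (1.10, adjusted p = 2.95e-06), and its difference without a floor was 0.13 (adjusted p = 0.557). Without brain array 3, 14 of the 20 were lower, beside 28.8% of all genes, and the median was -1.25. The list's score, its mean level, was 9.48, 9.43, 8.66 and 9.47 on the 4 double knockout brain arrays and 8.12, 8.17, 8.22 and 8.13 on the cord arrays. Brain array 3 had the lowest score of the 4, as had wild type brain array 3 in its group (8.15 against 9.40 to 9.52).

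The diencephalon, midbrain and cerebellum list had 24 tested genes, 12 lower in cord and 2 higher (median -0.32), beside 30.7% and 30.2% of all genes. For 1 of the 24 the cord mean was below the floor, so its direction is not independent of the filter. Besides Otx2, Tcf7l2 and Lhx9, Foxp2, of thalamus and cerebellum, was lower (-1.27, SE 0.134), as were Barhl1 (-0.92) and Irx2 (-0.77). Genes of monoamine and hypothalamic neurons (16 tested) were lower in 9 cases and higher in 3 (median -0.53), beside 30.7% and 30.2% of all genes. The cord mean alone was below the floor for 1 of these 16, with the same limit on its direction, and both means were for 1. Of 15 tested, 8 were lower and 0 higher after quantile normalization, beside 22.4% and 26.7% of all genes. Without brain array 3, 9 of 15 were lower and 1 higher, beside 28.8% and 29.5%. Th, the rate-limiting enzyme of dopamine and noradrenaline synthesis, read 8.69, 8.81, 9.37 and 8.79 in brain and 7.39, 7.69, 7.39 and 7.29 in cord. Brain array 3, low in cortical genes, was the highest for Th. Its difference was -1.47 (SE 0.147). The vesicular monoamine transporter Slc18a2 (-1.60), the serotonin transporter Slc6a4 (-1.57) and the decarboxylase Ddc (-1.40) were lower as well, while Ddc was not called where the floor was required in each double knockout tissue (-0.39, adjusted p = 0.0877).

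The 20 tested transcription factors of spinal interneurons were higher in double knockout cord in 15 cases and lower in 2 (median 0.59), where 30.2% of all genes were higher. After quantile normalization 11 were higher and 1 lower, where 26.7% of all genes were higher. Prrxl1, which dorsal horn and sensory neurons need to form the pain circuit, read 7.77, 7.55, 7.46 and 7.73 in brain and 10.01, 9.93, 9.85 and 9.74 in cord. No array of one group came near the other group. Its difference was 2.25 (SE 0.166, adjusted p = 6.49e-08), which is 5.1-fold. Pax2 (2.15) and Pax8 (1.74), of inhibitory interneurons, and Lbx1 (1.40), Lmx1b (1.32) and Tlx3 (1.04), of dorsal horn neurons, were higher. Gata3, of an inhibitory ventral class but also of midbrain neurons, was lower (-0.87).

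Genes of motor neurons and cholinergic transmission were higher in 10 of 15 cases and lower in 3 (median 0.80), beside the same 30.2% and 30.7%. Prph, peripherin, the intermediate filament of neurons that project out of the cord, read 8.40, 8.49, 8.73 and 8.30 in brain and 10.04, 10.05, 9.71 and 9.88 in cord. Every cord was above every brain (difference 1.44, SE 0.223, adjusted p = 5.9e-05). Chat, the enzyme that makes acetylcholine, lay just above the floor in brain (6.84 to 6.96) and at 7.79 to 8.20 in cord, with a difference of 1.08 (SE 0.124). The choline transporter Slc5a7 (1.11), the growth factor receptor Ret (1.25) and the fast motor neuron gene Chodl (1.04) were higher. Foxp1 (-1.01) and Isl1 (-0.71), which motor neurons share with striatal neurons, were lower.

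Single transmitter genes differed in both directions. For inhibitory transmission, 5 of 18 genes were higher in double knockout cord and 8 lower, beside 30.2% and 30.7% of all genes (median -0.19). After quantile normalization the balance turned to 6 higher and 4 lower, beside 26.7% and 22.4% (median 0.05). The glycine transporter Slc6a5 read 7.37, 7.22, 8.02 and 7.39 in brain and 9.35, 9.07, 9.39 and 9.12 in cord. Glycine is the main fast inhibitory transmitter of the cord, and both this transporter (1.73, SE 0.266, 3.55-fold) and the glycine receptor subunit Glra1 (1.71, SE 0.2) were higher there. The GABA receptor subunits Gabrb2 (-0.95), Gabra2 (-0.74) and Gabra3 (-0.38) and the GABA-making enzyme Gad2 (-0.68) were lower, and Gabra3 was -0.07 and not called after quantile normalization. Without cords 2 and 4, 4 of the 18 were higher and 5 lower, beside 25% and 24% of all genes.

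Glutamatergic genes were higher in 11 of 18 cases and lower in 3, beside 30.2% and 30.7% of all genes (median 0.30). After quantile normalization they were 14 and 1 (median 0.47), beside 26.7% and 22.4% of all genes. The NMDA receptor subunits Grin2a (1.11), Grin2c (0.67) and Grin1 (0.55) and the kainate receptor subunit Grik2 (0.61) were higher. Slc17a7, the vesicular glutamate transporter of cortex, was lower (-1.22, adjusted p = 0.0164), though brain array 3, at 7.27, lay within the range of the cords. Neuropeptide and pain pathway genes of the dorsal horn were higher in 10 of 15 cases and lower in 1 (median 0.44), where 30.2% of all genes were higher. For 1 of the 15 the brain mean was below the floor, so its direction is not independent of the filter. Nmu, neuromedin U, was 1.33 higher and Npff, an opioid-modulating peptide, 1.03. The 1 lower gene was Nts, neurotensin (-1.82).

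The neurofilament genes were higher in cord. Nefm, the medium subunit of the filaments that widen large axons, read 10.52, 10.47, 10.90 and 10.34 in brain and 11.82, 11.79, 11.76 and 11.82 in cord. The cord arrays were nearly equal and above every brain. Its difference was 1.24 (SE 0.152), beside 1.00 for Nefh and 0.91 for Nefl. The whole cytoskeleton list had 4 higher and 3 lower of 17 (median -0.04), shares below the 30.2% and 30.7% of all genes. After quantile normalization it had 8 higher and 2 lower (median 0.22), beside 26.7% and 22.4% of all genes. Within it Tubb3, neuronal tubulin, was lower (-0.53) and Gap43, of growing axons, was at -0.09 without a call. Of 22 synaptic vesicle genes, 8 were higher and 5 lower (median -0.01), beside the same shares of all genes. After quantile normalization 12 were higher and 1 lower (median 0.26), beside 26.7% and 22.4% of all genes. Syt2, the fast calcium sensor of hindbrain and cord synapses (1.13), and Sv2c (1.13) were higher. Cplx2, a complexin of forebrain synapses, was lower (-0.64).

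Splicing regulators as a list stood near the background. Of 32 tested, Nova1 and Nova2 included, 10 were higher and 12 lower in double knockout cord, beside 30.2% and 30.7% of all genes (median -0.12). After quantile normalization 11 were higher and 6 lower, beside 26.7% and 22.4% of all genes (median 0.12). Nova1 was 1 of the 10 higher before it (1.37, adjusted p = 2.24e-05) and the only 1 by at least 1, though it was below the floor in both tissues. For 1 other regulator the brain mean was below the floor, so its direction is not independent of the filter. Single regulators differed in both directions. A2bp1 (Rbfox1), which binds UGCAUG motifs, was higher (0.62, SE 0.0895, adjusted p = 3.17e-05, and 0.93 after quantile normalization). Its level was 9.97, 9.81, 9.86 and 10.06 in brain and 10.50, 10.51, 10.59 and 10.58 in cord, without overlap. Ptbp1, the repressor of neuronal exons in progenitors and glia, was lower (-0.48, and -0.28 after quantile normalization). Rbm20 (0.71) and the epithelial regulator Rbm35b (Esrp2, 0.68) were higher, and Khdrbs3 (-0.82) and Tnrc4 (Celf3, -0.60) were lower. The 43 tested genes of known Nova splicing targets were higher in 13 cases and lower in 9 (median 0.03), beside 30.2% and 30.7% of all genes. After quantile normalization 21 were higher and 2 lower (median 0.21), beside 26.7% and 22.4% of all genes. Without cords 2 and 4 the counts were 9 and 4, beside 25% and 24% of all genes.

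Genes of other tissues that can come with dissected cord were also higher. Of 16 skeletal muscle genes, 14 were higher in double knockout cord and none lower (median 1.21), where 30.2% of all genes were higher. For 6 of the 16 the brain mean was below the floor, so their direction is not independent of the filter. With levels below the floor set to the floor, the median was 1.14. The muscle score was 6.99, 6.86, 6.92 and 7.08 on the brain arrays and 7.49, 9.30, 7.78 and 8.79 on the cord arrays, so cords 2 and 4 were far above cords 1 and 3. Actc1, the cardiac and embryonic muscle actin, read 7.37, 11.62, 8.66 and 10.97 in cord against 6.74 to 6.92 in brain (difference 2.84), and without cord array 2 it was 2.19 and not called (adjusted p = 0.0542). Without cords 2 and 4, 3 of 15 tested muscle genes were called, all higher, beside 25% of all genes higher, so no excess over that share remained. Without brain array 3, 9 of 16 were called higher, beside 29.5% of all genes. After quantile normalization 8 were, beside 26.7%.

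Car3, a carbonic anhydrase of slow muscle and fat, read 7.81, 11.45, 11.25 and 10.30 in cord and 6.39 to 6.61 in brain. Cartilage and bone genes were higher in 6 of 8 cases (median 0.80) and Schwann cell and dorsal root ganglion genes in 7 of 10, with 1 lower (median 0.66), where 30.2% of all genes were higher. Their scores were 7.91 to 8.56 in cord against 7.35 to 7.49 in brain, and 8.24 to 8.40 against 7.67 to 7.99. Brain was below the floor for 2 of the 8 cartilage and bone genes, with the same limit on their direction. Choroid plexus genes were lower in 8 of 11 cases and higher in 1 (median -0.72), where 30.7% of all genes were lower, with scores of 7.12 to 7.26 in cord and 8.38 to 8.52 in brain. Cord was below the floor for 3 of these 11, so their direction is not independent of the filter. The Hox, interneuron and motor neuron counts without cords 2 and 4 were 24, 13 and 10 higher, where 25% of all genes were called higher.

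**Figure D3:**
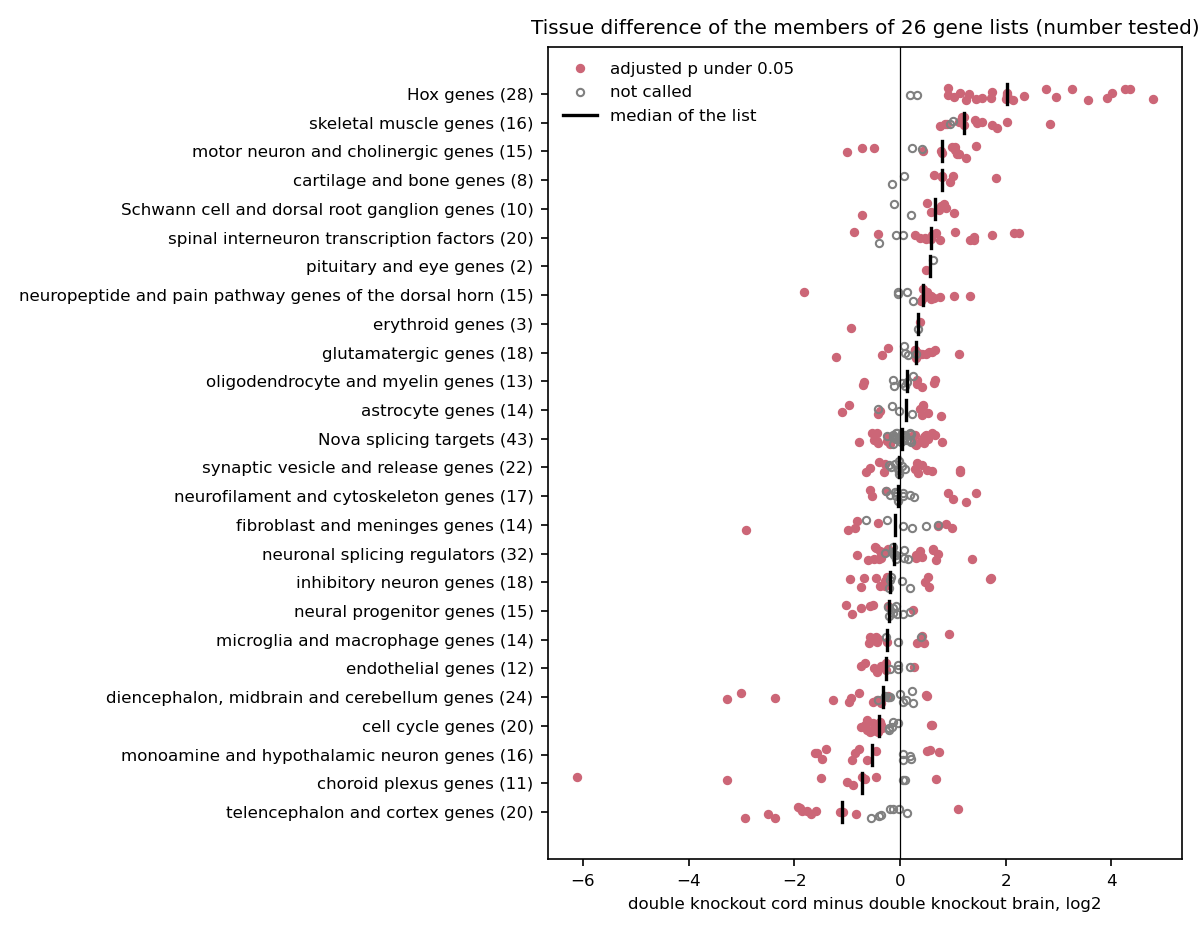
Each point is a tested gene of 1 of 26 lists, by its difference between double knockout spinal cord and brain (x axis, log2), filled where the adjusted p was under 0.05, with the median of the list as a black bar. Medians run from 2.02 for Hox genes to -1.10 for telencephalon and cortex genes, and most lists hold genes on both sides of 0.

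The same tissue difference in wild type shares no array with the double knockout comparison. In wild type, 8764 of 14570 genes (60.2%) were called, and 501 (3.44%) differed by at least 1. Of the 669 genes that differed by at least 1 in the double knockout, all 669 had the same sign in wild type and 663 were called there in the same direction. These genes were picked for being past 1, and the share of equal signs over all genes was not counted. The dimmest genes were shifted toward cord in both genotypes (median 0.47 in the double knockout and 0.42 in wild type). How far that goes with the equal signs was not tested. The 323 genes past 1 in both genotypes are 48.3% of the double knockout list and 64.5% of the wild type list. Over all genes the 2 differences had a correlation of 0.915, as a description over genes, which are not independent. Hoxc8 was 4.79 in the double knockout and 5.19 in wild type, Ttr -6.11 and -5.86, Otx2 -3.27 and -3.22, and Prrxl1 2.25 and 2.49.

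The difference between the 2 tissue differences was tested for each gene. None of 14570 passed limma's test (0%), and 1312 (9%) had an unadjusted p under 0.05. No other tool was run on it. The 5 genes with the smallest adjusted p shared a value of 0.0584. Htra1, a serine protease of glia and vessels, was -0.79 in the double knockout and 0.44 in wild type (difference -1.23, SE 0.212). Coro6, an actin-binding coronin, was 0.71 and 1.66, Kcnip3, a calcium sensor of potassium channels, -0.70 and 0.04, Cx3cl1, the neuronal chemokine fractalkine, -0.32 (-0.15 and not called after quantile normalization) and 0.68, and Klrc2, a receptor gene of natural killer cells, 1.66 and 0.82. After quantile normalization 8 genes were called higher and 18 lower, and without wild type brain array 3 it was 5 and 20. All 5 genes named here were called under both settings, with adjusted p from 0.00806 (Coro6) to 0.0201 (Htra1) after quantile normalization and from 0.00845 (Coro6 and Cx3cl1) to 0.0435 (Htra1) without wild type brain array 3.

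**Figure D4:**
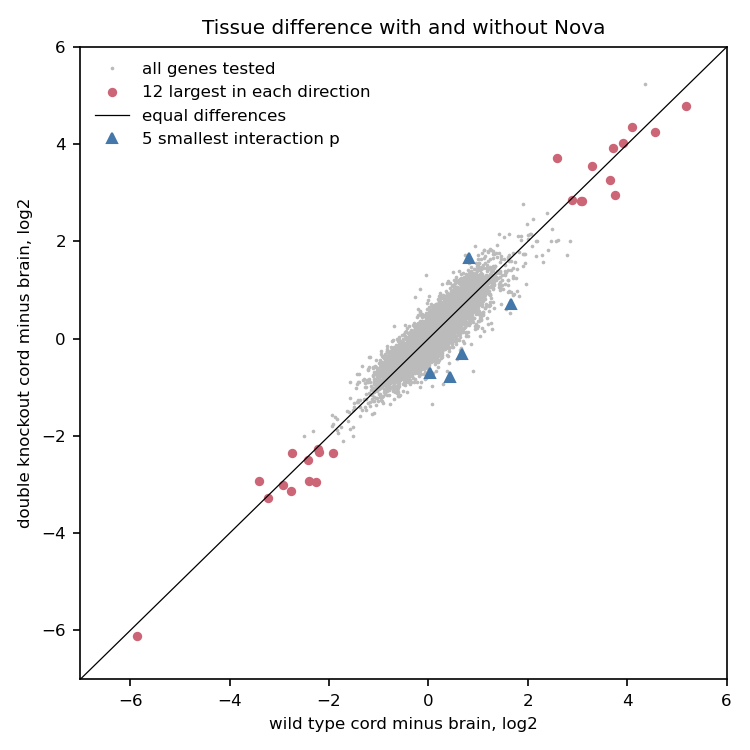
Tissue difference of each of 14570 genes in wild type (x axis) and in the double knockout (y axis), both cord minus brain on the log2 scale, with the line of equal differences. The 12 largest differences in each direction (red, clone genes skipped) lie near the line, and the 5 genes with the smallest p for a changed difference (blue triangles) lie off it.

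Glial and immune lists had the highest shares of members with an unadjusted p under 0.05 for a changed tissue difference, 7 of 14 astrocyte, 7 of 14 microglia and macrophage and 5 of 13 oligodendrocyte genes, beside 9% of all genes. Their median tissue difference was 0.11, -0.26 and 0.14 in the double knockout and 0.56, 0.20 and 0.47 in wild type. In the double knockout 6 astrocyte genes were higher in cord and 4 lower. The counts were 4 and 7 for microglia and 5 and 2 for oligodendrocytes, beside 30.2% and 30.7% of all genes. Aqp4 and Sparcl1 of astrocytes, Ptprc of microglia and Sox10 and Mag of oligodendrocytes were among the higher ones. Gfap, the intermediate filament of astrocytes, was 0.53 higher in double knockout cord and 1.64 in wild type cord. Clu, a secreted chaperone, was -1.09 and -0.44, and the glutamine synthetase gene Glul -0.42 (-0.13 and not called after quantile normalization) and 0.03. Tyrobp, a microglial signalling adaptor, was -0.49 and 0.42, and the complement gene C1qb -0.43 and 0.19. Olig1, of oligodendrocyte precursors, was -0.68 and -0.07. For none of these genes did the changed tissue difference pass the test over all genes.

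Exon use was read as the exon index, the log2 value of a probe set from which its gene's level on that array was subtracted, so that a changed index marks a probe set that changed relative to its gene. Probe sets are named by number, since their places in the genes were not used here. Of 193126 probe sets, 50064 (25.9%) were called between double knockout cord and brain, 29134 higher (15.1%) and 20930 lower (10.8%). By at least 1 there were 6010 higher (3.11%) and 873 lower (0.452%), 6883 in all (3.56%). After quantile normalization 4988 were higher and 1765 lower by at least 1. Of the 38626 dimmest probe sets 7.08% were higher by at least 1, and of the 38625 brightest 1.03%. Of 178900 probe sets above the floor in both double knockout tissues, in genes whose level differed by less than 1, 4243 were higher (2.37%) and 450 lower (0.252%) by at least 1.

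In that set the largest rises toward cord were in Prss33, Paip1, Rbm19 and Urb1. Probe set 5348703 of Rbm19, a ribosome biogenesis factor, had an index of -1.78, -1.36, -0.76 and -1.16 in double knockout brain and 1.63, 2.06, 2.00 and 1.40 in cord. The groups did not overlap, while the gene's own level differed by -0.03. The index difference was 3.04 (SE 0.254, adjusted p = 4.53e-06, n = 4 per group), and in wild type 2.31. Its signal in brain, 6.82, was close to the floor. Probe set 4375781 of Urb1, also of ribosome biogenesis, had an index of -0.94, -1.35, -0.96 and -0.78 in brain and 1.88, 2.00, 1.85 and 1.59 in cord (2.84, and 2.60 in wild type).

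Among the other 8 of the 12 largest rises, the differences ran from 2.62 (Eya3, a phosphatase and transcription cofactor) to 2.83 (Calcr, the calcitonin receptor, and Lbp, which binds lipopolysaccharide). All 12 probe sets had a mean signal in double knockout brain between 6.78 and 8.51. Camkv, a synaptic kinase-like gene, had an index of 3.98 on cord array 3, -0.57 to 0.28 on the other cords and -2.20 to -1.50 in brain. It stayed called under all 29 settings, with a difference of 1.79 at the lowest. Among the 12, the level of the gene itself was lower in cord for Camkv (-0.92), Lbp (-0.88), Calcr (-0.87), Paip1 (-0.66), Nol4 (-0.59) and Jup (-0.56). That fall is part of their index rise. The gene's level was higher for Prss33 (0.88), Wbscr27 (0.48), Urb1 (0.45) and Mtap1s (0.23), and nearly equal for Rbm19 (-0.03) and Eya3 (0.02).

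The 12 largest falls toward cord began with Gnas, the imprinted locus of the stimulatory G protein, which has several starts. Probe set 4688531 had an index of 2.19, 2.20, 1.93 and 1.64 in double knockout brain and -0.17, -0.33, -0.30 and 0.00 in cord. The gene's level went the other way (0.94). The index difference was -2.19 (SE 0.216, adjusted p = 1.22e-05), beside -2.11 in wild type. Probe set 4998175 of Sp9, a zinc finger factor of striatal neurons, had an index of 1.86, 1.76, 1.68 and 1.75 in brain and -0.38, 0.00, -0.66 and 0.00 in cord (-2.02, and -2.07 in wild type). Grm2, a metabotropic glutamate receptor, was -1.66 and Lrp4, the agrin receptor of the neuromuscular junction, -1.71. The level of the gene itself was higher in cord for Lrp4 (0.94) and lower for Grm2 (-0.40). Rbm35b (-1.59) lost its call when any 1 of brain array 3, cord array 2 or cord array 4 was left out (adjusted p up to 0.0668).

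Of the 6883 probe sets past 1 in the double knockout, 6861 had the same sign in wild type. The 3362 that were past 1 in both genotypes are 48.8% of the double knockout list and 70.9% of the wild type list of 4745 (2.46% of all). The index differences thus had the same direction in both genotypes for nearly all of these probe sets, which were picked for being past 1. The share of equal signs over all probe sets was not counted. Cord arrays had the higher median intensity in wild type too (99.5 to 116.2 against 72.3 to 82.9). How far that goes with the equal signs was not tested.

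The 43 known Nova targets held 1528 of the probe sets. In the double knockout 265 were higher in cord (17.3%) and 128 lower (8.38%), beside 15.1% and 10.8% of all. By at least 1 the share was 4.38% against 3.56%. At probe set 4319053 of Cask, a scaffold of the presynaptic terminal, the index was -0.20, -0.38, -0.42 and -0.18 in double knockout brain and 0.77, 0.89, 0.81 and 0.76 in double knockout cord. All cords lay above all brains (difference 1.10, SE 0.0936, adjusted p = 5.12e-06). In wild type the means were 0.89 in brain and 1.48 in cord (0.59).

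Aplp2, of the amyloid precursor family, had at probe set 5477899 an index of -2.62, -2.29, -2.44 and -2.39 in double knockout brain and -1.73, -1.54, -1.33 and -1.34 in cord. The difference was 0.95 (SE 0.112), beside 0.26 in wild type, where the means were -0.19 and 0.07. Brd9, a bromodomain protein of chromatin remodelling, had an index difference of 2.13 at probe set 4687516 (1.22 in wild type) with a brain mean of -1.49 in the double knockout and -1.19 in wild type. Neo1, a guidance receptor, had 0.69 and 0.61, and Cacna1b, the N-type calcium channel, 1.78 and 1.09. Of these 5 targets none passed the test for a changed tissue difference (adjusted p from 0.641 to 0.958). Epb4.1l2, also on the list of Nova targets, did pass it at 1 probe set (adjusted p = 0.0468).

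For a changed tissue difference in the exon index, 1 of 193126 probe sets was called (0.000518%), and 10955 (5.67%) had an unadjusted p under 0.05. It was probe set 4959500 of the Nova target Epb4.1l2, a membrane skeleton protein of the band 4.1 family. Its index was -2.14, -1.55, -1.36 and -1.53 in double knockout brain and -0.56, -0.27, -0.23 and -0.31 in double knockout cord. In wild type it was 0.69, 0.56, 0.75 and 0.66 in brain and 0.34, 0.34, 0.43 and 0.23 in cord. Without Nova the cord was above the brain by 1.30 (SE 0.135), and in wild type it was below by a difference of -0.33. The difference of the 2 was 1.63 (SE 0.191, adjusted p = 0.0468), and it kept its sign under all 28 other settings. In 22 of them it was no longer called, with an adjusted p of up to 0.443 without the cord arrays rich in muscle genes. The probe set's mean signal in double knockout brain was 6.85, next to the floor.

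**Figure D5:**
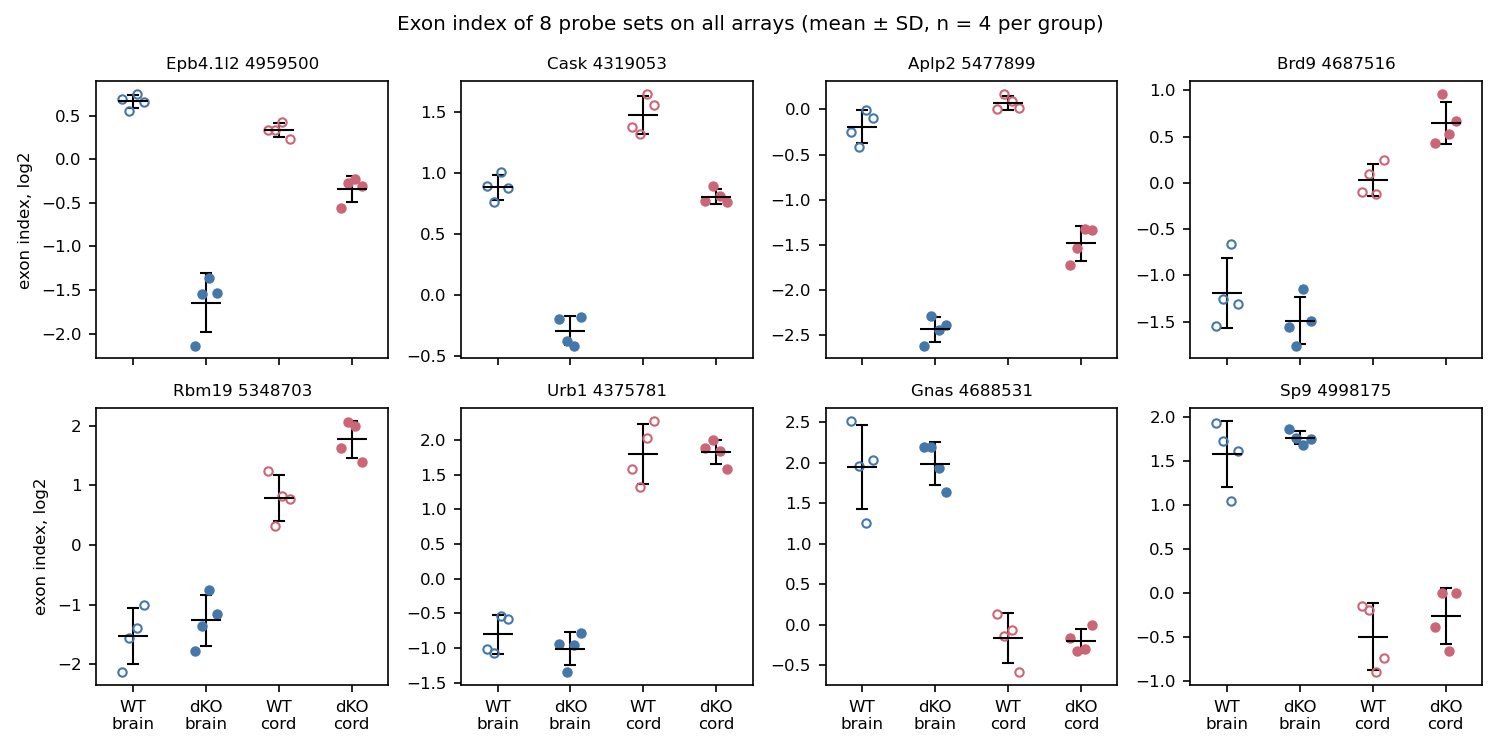
Exon index (y axis, log2 of the probe set minus the level of its gene) of 8 probe sets on each of the 16 arrays, with mean and SD (n = 4 per group), open for wild type (WT) and filled for double knockout (dKO), blue for brain and red for cord. Rbm19, Urb1, Gnas and Sp9 differ between tissues in the same direction in both genotypes, while for Epb4.1l2, Cask and Aplp2 every double knockout array lies below every wild type array of the same tissue, and the gap between means is wider in brain.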

How the data were processed

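The authors deposited linear intensity values per probe set. The submitters' processing notes name Affymetrix Power Tools, PLIER and build mm8. Tool versions, PLIER settings and probe-set positions were not given in the sources used here. PLIER summarises all probes of each probe set. RNA was prepared with Trizol and labelled with biotin by the sense target method, per the labels' protocols. Of 625534 probe sets, 303629 carry 1 gene symbol.

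Values were taken as log2(intensity + 16), which understates the change of dim genes. A probe set had to exceed 6.73, the median of all probe sets, in its mean. A gene level is the median over at least 3 such probe sets, centred on the median gene of each array, and the exon index is the probe set minus its gene level, for genes with at least 5. All 16 arrays were fitted with limma 3.58.1 in R 4.3.3 (the data.table package, 1.17.8), with 1 mean per group and Benjamini-Hochberg adjustment at 0.05. Fold changes are ratios of means taken back to intensity, and "at least" sets the brighter tissue against the floor. Precision rests on the number of arrays, 4 per group. Figures were drawn with Python 3.11.15 and matplotlib 3.10.9.

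The rule for named genes took Nova1 and Nova2, the 12 largest non-overlapping called differences each way without clone genes, up to 5 called members of each list by adjusted p, and by like rules the probe sets and up to 12 Nova targets. Other list members and the 5 genes nearest a changed tissue difference were named after their values were seen. The comparison, the members and the 26 lists (440 of 529 entries tested) were chosen with earlier results of these data known.

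Replicate numbers did not pair brain with cord: correlations of same-numbered deviations ran from -0.15 to 0.04, and sex differed in all 4 wild type numbers and in number 4 of the double knockout. On simulated data the gene test called 82 of 100 changes of 1 and 29 of 100 changes of 0.5 in the double knockout comparison over 14561 genes, and the exon test 59 of 100 changes of 1 over 193098 probe sets. Few genes were changed there, where 60.9% were called in the data, and gene spread was added on top of probe-set spread. These shares therefore do not give the sensitivity of the real comparison. Alternatives changed the centring, scaling, pseudocount, floor, gene summary, replicate block, sex term and the arrays used.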

Additional observations from a re-analysis of the deposited data

Results flagged for a closer look

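Among 344 groups of 4 arrays looked at for the named genes and probe sets, 18 held 1 array far from the other 3. Chance alone gives about 1 in 20 groups, so the number flagged is near that share, and the named genes are not independent of each other. Double knockout brain array 3 was the array apart for 9 genes. It was low for the cortical genes Tbr1 (7.96, others 9.99 to 10.08), Sla (8.18, others 10.05 to 10.29), Fezf2 (7.54, others 10.14 to 10.17), Zfp238 (9.62, others 11.42 to 11.55), Lhx2 (8.58, others 9.46 to 9.58) and Eomes (7.97, others 8.61 to 8.66), and for the progenitor filament Nes (7.90, others 8.13 to 8.17). It was high for the receptor gene Ret (8.20, others 7.67 to 7.74) and the vesicle gene Sv2c (9.08, others 8.67 to 8.70).

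Double knockout brain array 1 was low for the motor neuron factor Isl2 (6.74) and high for the complement gene C1qc (8.81). Brain array 4 was high for Ptprc (7.18), the leukocyte marker CD45. Cord array 4, the male cord, was high for the meningeal transporter Slc6a13 (9.32, others 7.90 to 8.13) and the claudin Cldn11 (8.59, others 7.87 to 7.96). Cord array 3 was high for Gsx2 (10.89) and low for Ptbp1 (8.91). Cord array 1 was low for Gli3 (7.17), and cord array 2 was high for the exon index of Paip1 probe set 5592090 (1.02, others -0.01 to 0.12).

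The exon index of Epb4.1l2 probe set 4959500 differed between the genotypes in its tissue difference by 1.63 (limma, adjusted p = 0.0468), with every double knockout cord above every double knockout brain and every wild type cord below every wild type brain.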

How the results depend on the processing

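Of 136 named gene levels, 102 kept direction and call under every setting tried, 29 lost the call under at least 1 and 8 turned direction; of 37 named exon values, 34 kept both, 3 lost the call and none turned. Directions turned with the floor at the 75th percentile for Eomes (0.46), Lef1 (0.14), Sox1 (0.16), Gli3 (0.31), Tie1 (0.20) and Foxc1 (0.58), with no floor for Tac2 (-0.04) and Ccne1 (-0.09), and for Eomes (0.29) with the floor required in each double knockout tissue; the cause was not tested.

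The double knockout gene counts, 4394 higher and 4476 lower, were 2708 and 6968 with no centring (28% higher, against 49.5% with it). With the floor at the 75th percentile, which leaves fewer genes, they were 2600 and 2947, and the wild type count of higher genes was 2714. The exon counts with that floor were 15861 and 13699 in the double knockout and 13568 and 12269 in wild type. The mean over probe sets in place of the median turned the balance of exon values from 58.2% higher to 45.5% higher, with 27278 higher and 32719 lower. Without the cord arrays rich in muscle genes (wild type 1 and 4, double knockout 2 and 4) exon counts were 18532 and 12258 in the double knockout and 15039 and 11909 in wild type.

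Genes with a changed tissue difference, 0 each way, were 8 higher and 18 lower after quantile normalization, 6 lower with the 75th percentile floor, 1 and 1 with no floor, 1 lower with the mean over probe sets, 3 and 12 without both brain arrays 3, and 1 lower without the cords rich in muscle genes. The 1 exon value with a changed tissue difference became 3 at a pseudocount of 64 and 2 without the cords rich in muscle genes. It became 0 after quantile normalization, at a pseudocount of 1, with no floor, with the floor in each double knockout tissue, with the mean over probe sets, with the sex term and with the replicate block. The replicate block gave 4273 higher and 4151 lower genes and 24808 higher and 16140 lower exon values in the double knockout.

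Leaving out 1 array at a time, the double knockout gene counts ran from 3995 to 4579 higher and from 3922 to 4626 lower, and the wild type counts from 3730 to 4839 and from 3899 to 4581. Genes with a changed tissue difference ran from 0 to 5 higher and from 0 to 20 lower, both highest without wild type brain array 3. Exon counts ran from 22443 to 31078 higher and from 14921 to 23039 lower in the double knockout and from 17430 to 24878 and from 12307 to 18486 in wild type (12307 without wild type brain array 2). Exon values with a changed tissue difference ran from 0 to 2 and from 0 to 1, highest without double knockout cord array 1. List counts without brain array 3, without cords 2 and 4 and after quantile normalization were chosen after seeing the data. Values near the floor have little signal over background, and small differences there are the least certain.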

Other observations

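Proliferation genes leaned toward brain without Nova. Of 20 cell cycle genes 13 were lower and 2 higher in double knockout cord (median -0.40, and -0.48 in wild type), among them Cdc2a, the mitotic kinase, at -0.73, and the replication helicase genes Mcm6 (-0.66) and Mcm2 (-0.62). Of 15 neural progenitor genes 6 were lower and 1 higher (median -0.20), with the stem cell factor Sox2 at -0.90 and the Notch effector Hes5 at -0.73 (-1.40 in wild type). Of 12 endothelial genes 7 were lower and 1 higher (median -0.27). The background was 30.7% lower and 30.2% higher over all genes.

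Fibroblast and meninges genes gave 3 higher and 5 lower of 14 (median -0.09), beside 30.2% and 30.7% of all genes. Their scores were 8.39, 9.05, 8.30 and 9.22 on the cord arrays and 8.86 to 9.01 in brain, so cords 2 and 4 lay above every brain and cords 1 and 3 below. Without cords 2 and 4, 1 was higher and 7 lower, 5 of them by at least 1 (median -0.34), beside 25% higher and 24% lower of all genes. Alas2, the heme enzyme of red cell precursors, was -0.93 in the double knockout and 0.30 in wild type (unadjusted p = 4.62e-05 and adjusted p = 0.0748 for the difference). That difference was called after quantile normalization (-1.30, adjusted p = 0.021) and without wild type brain array 3 (-1.31, adjusted p = 0.0328).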
